A study of Mus musculus with 6 samples.

Results

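The genes described here encode carriers of amino acids and related small molecules in the plasma membrane and the lysosome, taken as every symbol of the count table in the solute carrier (Slc) families Slc1, Slc3, Slc6, Slc7, Slc36, Slc38 and Slc43. There were 61 such genes among 55286 symbols, and 37 passed a filter on low counts and were tested. RNA had been sequenced from 2 mouse libraries of each of 3 groups: embryonic fibroblasts (MEF), tissue or cells labelled Muscle, and cells titled Direct reprogramming whose cell type is given as Transdifferentiontion cell, called converted cells here. The series is about DNA methylation in such a change of cell type. The labels state no strain, age, source of the muscle, conversion factor or time after conversion. The sample descriptions begin with STauMEF, SEndomuscle and SiMuscle, and no meaning was read into these names. Nothing in the labels ties a replicate to its own culture or animal. A p-value here therefore measures the spread between libraries, which can be technical.

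Amino acids do not cross membranes unaided, and each cell type carries a set of transporters that overlap in substrate. Sodium-coupled carriers of the Slc1, Slc6 and Slc38 families load cells with glutamine, alanine, glutamate, taurine or creatine. Exchangers made of an Slc7 light chain and an Slc3 heavy chain then trade intracellular glutamine for leucine and other large neutral amino acids, which activate the growth kinase complex mTORC1 at the lysosome. The Slc43 carriers move large neutral amino acids by facilitated diffusion, and Slc36 and several Slc38 proteins work at the lysosome. The Slc6 family also holds carriers of substrates that are no protein amino acid, among them creatine (Slc6a8), taurine (Slc6a6) and GABA (Slc6a13), and Slc43a3 is known as a carrier of purine nucleobases. Skeletal muscle is known for high stores of taurine, creatine and glutamine.

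Libraries held 16817033 to 24584951 counts, and levels are given as CPM, the count scaled to the library's total after TMM correction for composition. Where a gene had no count, 3 counts were taken as the most it could have held, which is 0.128 to 0.183 CPM depending on the library and covers counting error only. All 9 skeletal muscle markers were called higher than in MEF both in muscle and in converted cells, and their summed level was 374 to 567 CPM in MEF, 48500.4 to 52616 CPM in muscle and 34876 to 52272 CPM in converted cells. The 6 fibroblast markers summed to 15432 to 25387 CPM in MEF, 5817 to 11118 CPM in muscle and 8966 to 13208 CPM in converted cells. Macrophage markers were called higher in converted cells than in MEF in 10 of 10 cases, with sums of 79.3 to 81.0 CPM in MEF, 3.90 to 6.06 CPM in muscle and 740.01 to 893 CPM in converted cells.

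Promoters of 4 members are shown first because these genes gave different patterns across the groups and their windows held 1 of the motifs searched. The sequences are from RefSeq on GRCm38.p6, run from 250 bases before to 50 after an annotated start, and are written 5′ to 3′ on the strand of the gene. Capitals mark the E-box CAGCTG, a palindrome that MyoD and related factors bind, in Slc38a4 (chr15:97055907-97056206, minus strand) and Slc1a2 (chr2:102706188-102706487, plus strand). In Slc7a11 (chr3:50443564-50443863, minus strand) and Slc1a4 (chr11:20332664-20332963, minus strand) they mark TGATGNAAN, the C/EBP-ATF response element through which ATF4 acts when amino acids are short. Both motifs were searched on both strands.
Slc38a4: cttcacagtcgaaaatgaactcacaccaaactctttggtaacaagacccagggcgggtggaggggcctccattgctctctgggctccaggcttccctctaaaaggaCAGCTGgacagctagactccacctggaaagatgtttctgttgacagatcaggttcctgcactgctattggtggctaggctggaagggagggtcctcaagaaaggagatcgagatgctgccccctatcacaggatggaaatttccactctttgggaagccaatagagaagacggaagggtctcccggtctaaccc
Slc1a2: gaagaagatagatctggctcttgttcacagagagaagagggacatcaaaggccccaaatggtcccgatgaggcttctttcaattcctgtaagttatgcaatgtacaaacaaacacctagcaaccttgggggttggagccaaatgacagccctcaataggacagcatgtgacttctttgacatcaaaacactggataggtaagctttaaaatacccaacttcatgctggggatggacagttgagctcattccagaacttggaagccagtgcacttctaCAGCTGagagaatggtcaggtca
Slc7a11: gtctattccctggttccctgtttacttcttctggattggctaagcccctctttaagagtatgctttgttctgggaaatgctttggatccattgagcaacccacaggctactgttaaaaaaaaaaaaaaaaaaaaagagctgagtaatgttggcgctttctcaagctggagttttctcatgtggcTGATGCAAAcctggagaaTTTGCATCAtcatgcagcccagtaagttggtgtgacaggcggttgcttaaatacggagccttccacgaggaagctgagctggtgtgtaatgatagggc
Slc1a4: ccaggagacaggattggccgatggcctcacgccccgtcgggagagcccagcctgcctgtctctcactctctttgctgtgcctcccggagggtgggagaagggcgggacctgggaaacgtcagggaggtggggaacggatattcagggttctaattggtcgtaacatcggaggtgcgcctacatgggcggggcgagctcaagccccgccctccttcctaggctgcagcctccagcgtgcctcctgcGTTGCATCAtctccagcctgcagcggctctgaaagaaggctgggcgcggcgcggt
Of the 37 tested members 25 had a promoter in the table, with 40 windows. The E-box was present in 7 of these windows (17.5%) and in 16.3% of all 32851 promoter windows of this length. The response element was present in 4 of the 40 and in 3.95% of all windows. It was found in Slc7a11, Slc1a4 and Slc7a7, and Slc7a11 held 2 copies, on opposite strands. The Slc7a7 windows that held it overlap and share a site, so that site was counted in both. A match describes these letters only. The Slc1a2 window is at an annotated start inside the gene, downstream of its first annotated base, and Slc38a4 has other RefSeq starts whose windows held neither motif.

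In converted cells against MEF 9 transporters rose, 12 fell and 16 were neither, by edgeR's quasi-likelihood test at a Benjamini-Hochberg adjusted p under 0.05 over 17400 genes. Of all genes 27.3% were called in this comparison, 15.9% higher and 11.3% lower. In muscle against MEF 8 rose, 14 fell and 15 were neither, beside 35.6% of all genes called, 17.3% higher and 18.3% lower. Directly between converted cells and muscle 4 were higher, 3 lower and 30 neither, beside 7.58% of all genes higher and 2.46% lower. The median log2 fold change of the tested members was -0.32, -0.36 and 0.22 in these comparisons, and that of all genes 0.07, 0.00 and 0.03. Members that passed the filter through a single high group had to differ, so these counts are a description, and any 2 of the comparisons share a group of libraries. In bulk RNA, fewer cells of a type and less RNA per cell cannot be told apart. The 12 falls in converted cells became 6 without MEF replicate 1, 4 without Transdifferentiated replicate 1 and 7 without Transdifferentiated replicate 2. The 14 falls in muscle became 9 without MEF replicate 1 or without Muscle replicate 1, and 6 without Muscle replicate 2. In the direct comparison the 4 higher became 7 without MEF replicate 1 or without MEF replicate 2. The 3 lower became 0 by edgeR without Muscle replicate 2, with 3 at an unadjusted p under 0.05 (DESeq2 was not run there), where the 428 genes lower over all became 140.

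**Figure D1:**
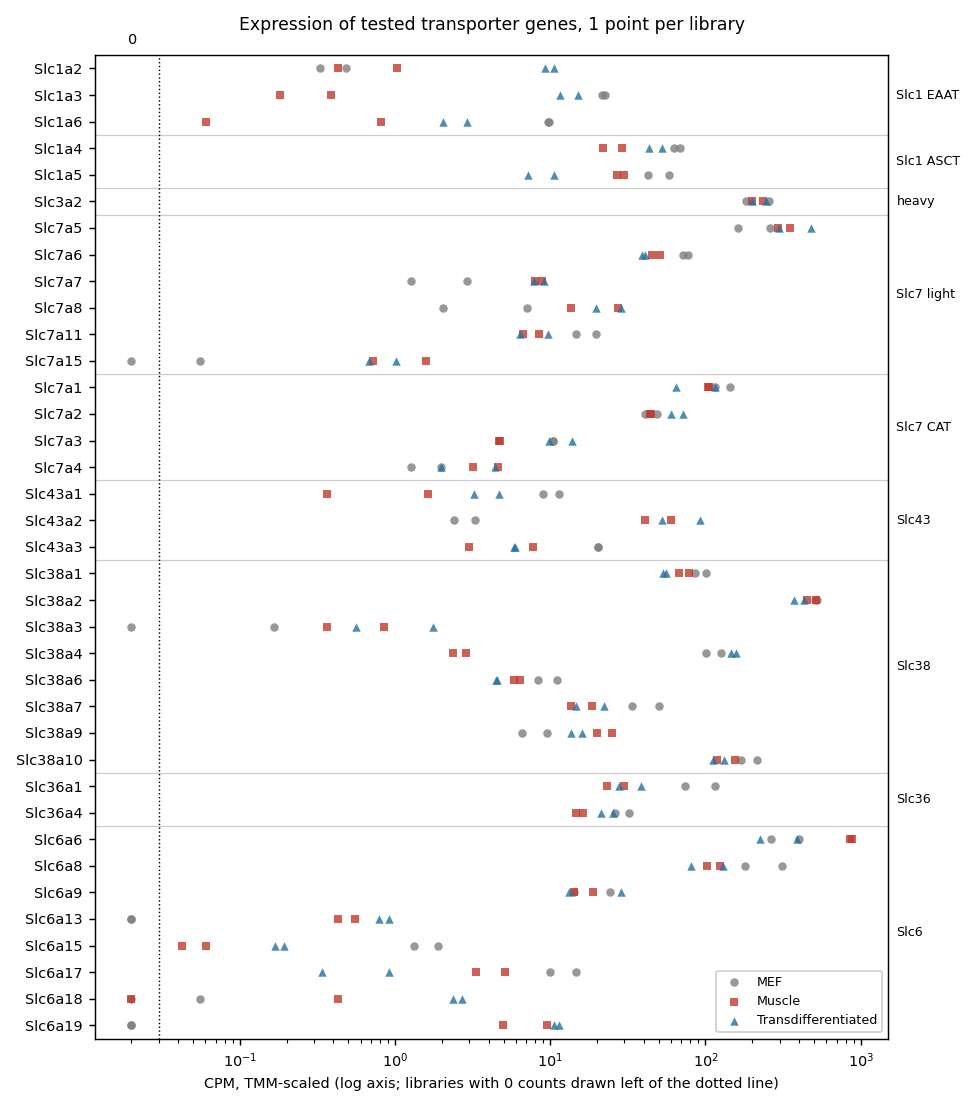
Level of each of the 37 tested transporter genes in CPM on a log axis, 1 point per library, with circles for MEF, squares for muscle and triangles for converted cells, and 0 counts left of the dotted line. Slc38a4 and Slc1a3 have both muscle libraries far below the other 4, Slc1a2 has both converted libraries far above the rest, and Slc43a2 has both MEF libraries below the rest.

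The heavy chain and the main light chain of the leucine exchanger were called in no comparison. Slc3a2 (4F2hc, CD98; chromosome 19, 8706882 to 8723369), which carries the Slc7 light chains to the cell surface, was at 258 and 182 CPM in MEF, 234 and 199 CPM in muscle, and 199.7 and 245 CPM in converted cells. The groups overlapped in all 3 comparisons. The other heavy chain, Slc3a1, the partner of the kidney cystine carrier, did not pass the filter. Slc7a5 (LAT1; chromosome 8, 121881150 to 121907694), which imports leucine and other large neutral amino acids, was at 262 and 162 CPM in MEF, 352 and 293 CPM in muscle, and 299.8 and 478 CPM in converted cells. Both muscle and both converted libraries lay above both MEF libraries, but the differences were not called (edgeR adjusted p = 0.181 and 0.0785). Levels per kilobase were taken over all annotated exons of a gene. The transcript forms present were not measured, so comparisons between genes on this scale are approximate. Slc7a5 stood at 57.1, 87.1 and 105 CPM per kilobase in MEF, muscle and converted cells, and Slc3a2 at 62.3, 61.4 and 62.9. Summed per kilobase, 6 light chains (Slc7a5, Slc7a6, Slc7a7, Slc7a8, Slc7a10 and Slc7a11) stood at 1.19 to 1.25 times the level of Slc3a2 in MEF, 1.68 to 1.73 times in muscle and 1.70 to 2.11 times in converted cells. Slc7a5 made up 71.3% to 77.4% of that light chain sum in MEF, 82.6% to 83.6% in muscle and 83.8% to 87.9% in converted cells.

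The remaining light chains moved both ways. Slc7a8 (LAT2; chromosome 14, 54722209 to 54781946), another exchanger of neutral amino acids, was at 7.05 and 2.04 CPM in MEF, 27.3 and 13.7 CPM in muscle, and 19.6 and 28.5 CPM in converted cells. It rose by 2.41 ± 0.58 (log2 fold change ± SE, as in what follows) in converted cells and by 2.18 ± 0.57 in muscle (edgeR adjusted p = 0.0149 and 0.0168), and neither group overlapped MEF. The muscle call did not hold without Muscle replicate 1 (edgeR adjusted p = 0.11). Slc7a7 (y+LAT1), which exchanges cationic for neutral amino acids and is known from macrophages and gut, ran at 1.263 to 2.92 CPM in MEF, 7.91 to 8.87 CPM in muscle and 7.81 to 9.05 CPM in converted cells. It rose in muscle (2.01 ± 0.44) and in converted cells (2.02 ± 0.44), with edgeR adjusted p = 0.00738 and 0.00997. Its level was alike in the muscle libraries, where macrophage markers summed to 3.90 to 6.06 CPM and Adgre1, Ptprc and Tyrobp were at 0 counts, and in the converted libraries, where they summed to 740.01 to 893 CPM. The part of macrophages in its level in converted cells was not tested. Exons of Oxa1l on the opposite strand overlap 7% of the Slc7a7 exon length, and reads of such pairs cannot be told apart where the counting's use of strand is unknown. Slc7a15 went from 1 count in the MEF libraries together to 0.675 to 1.02 CPM in converted cells, a ratio of 33.3 (exact Poisson interval 5.57 to 1353, which pools the libraries of a group and covers counting error only, as do those that follow), and to 0.725 to 1.58 CPM in muscle, a ratio of 41.8 (7.11 to 1688). Its rise in converted cells was not called without MEF replicate 2 (edgeR adjusted p = 0.0595).

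A cationic exchanger and the cystine carrier were the light chains that fell. Slc7a6 (y+LAT2) was at 76.7 and 72.0 CPM in MEF, 51.3 and 45.0 CPM in muscle, and 40.8 and 39.1 CPM in converted cells, where it fell by 0.90 ± 0.24 (edgeR adjusted p = 0.0235). The groups did not overlap, yet the call did not hold when any 1 of the 6 libraries was left out (edgeR adjusted p = 0.0507 to 0.0883). Slc7a11 (xCT; chromosome 3, 49892526 to 50443614), which imports cystine for glutathione in exchange for glutamate, lay at 14.7 to 19.7 CPM in MEF, 6.69 to 8.49 CPM in muscle and 6.35 to 9.64 CPM in converted cells. It fell by 1.10 ± 0.35 in converted cells and fell by 1.18 ± 0.35 in muscle (edgeR adjusted p = 0.0449 and 0.028). The converted call did not hold without MEF replicate 1, Muscle replicate 1, Muscle replicate 2 or Transdifferentiated replicate 1 (edgeR adjusted p = 0.0729 to 0.223), nor the muscle call without MEF replicate 1, Muscle replicate 1 or Muscle replicate 2 (0.0846 to 0.187). Its printed promoter, with 2 response elements, belongs to a gene lower in both groups than in MEF.

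Cationic carriers of the Slc7 family were neither in 4 of 4 tested cases in converted cells against MEF. Of all genes 27.3% were called there. Slc7a1 (CAT1), the general arginine and lysine carrier, was at 144 and 115 CPM in MEF, 104 and 106 CPM in muscle, and 64.7 and 115 CPM in converted cells, with no call in any comparison. Slc7a2 (CAT2), whose known isoforms serve liver and activated macrophages, ran at 40.9 to 48.5 CPM in MEF, 44.0 to 44.9 CPM in muscle and 59.6 to 72.1 CPM in converted cells, again without a call. Slc7a3 (CAT3) separated muscle from the other groups, at 10.3 to 10.4 CPM in MEF, 4.69 to 4.75 CPM in muscle and 9.83 to 13.9 CPM in converted cells. Muscle was below MEF (-1.13 ± 0.33) and converted cells were above muscle (1.33 ± 0.33), with edgeR adjusted p = 0.0254 and 0.0353. The first call did not hold without MEF replicate 1, MEF replicate 2, Muscle replicate 1 or Muscle replicate 2 (edgeR adjusted p = 0.0622 to 0.133), nor the direct call without Muscle replicate 1, Muscle replicate 2 or Transdifferentiated replicate 1 (0.198 to 0.216). Slc7a4 ran at 1.263 to 1.98 CPM in MEF, 3.16 to 4.63 CPM in muscle and 1.97 to 4.41 CPM in converted cells and was called nowhere. P2rx6 on the opposite strand shares 13.3% of its exon length.

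Slc43a2 (LAT4; chromosome 11, 75531694 to 75577575), which lets leucine, phenylalanine and methionine cross membranes down their gradient, rose in muscle and in converted cells. Its level was 3.25 and 2.38 CPM in MEF, 59.7 and 40.5 CPM in muscle, and 52.2 and 92.0 CPM in converted cells. All 4 muscle and converted libraries lay above MEF, by 4.16 ± 0.41 in muscle and 4.68 ± 0.41 in converted cells (edgeR adjusted p = 9.3e-05 and 7.1e-05). These calls held in every fit that left out 1 library. Between converted cells and muscle the libraries overlapped and no call was made (0.52 ± 0.35, edgeR adjusted p = 0.477). An antisense transcript, Gm45606, overlaps 9.18% of its exon length. Slc43a3, the nucleobase carrier, was at 20.2 and 20.3 CPM in MEF, 7.76 and 2.98 CPM in muscle, and 5.96 and 5.86 CPM in converted cells. It fell by 1.90 ± 0.44 in muscle and fell by 1.77 ± 0.44 in converted cells (edgeR adjusted p = 0.00919 and 0.0165), the muscle call not without Muscle replicate 2 (0.0559). Slc43a1 (LAT3), a neutral amino acid carrier, lay at 9.03 to 11.4 CPM in MEF, 0.365 to 1.62 CPM in muscle and 3.24 to 4.67 CPM in converted cells. It fell by 3.30 ± 0.60 in muscle (edgeR adjusted p = 0.00283), while converted cells were called neither against MEF (-1.37 ± 0.54, 0.0941) nor against muscle (1.93 ± 0.59, 0.0798).

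Among the Slc38 carriers of glutamine and alanine, Slc38a4 had the smallest adjusted p of the 37 members in the direct comparison. Slc38a4 (SNAT4; chromosome 15, 96994820 to 97055956), an importer of neutral amino acids expressed from the paternal allele in mouse, was at 101 and 125 CPM in MEF and 157 and 145 CPM in converted cells, but at 2.86 and 2.37 CPM in muscle. Both converted libraries lay above both MEF libraries without a call (0.42 ± 0.25, edgeR adjusted p = 0.251). Muscle fell by 5.43 ± 0.31 against MEF, and converted cells were above muscle by 5.84 ± 0.31 (edgeR adjusted p = 3.7e-06 and 6.0e-05). Both calls held without any 1 of the 6 libraries. In the authors' deposited table, where the 7 members listed have the sign of MEF over muscle, Slc38a4 has a log2 fold change of 5.48. Fibroblast markers moved the same way in the direct comparison, with 4 of 6 higher in converted cells than in muscle (median log2 fold change 2.07). Their summed levels were 8966 to 13208 against 5817 to 11118 CPM, with no marker at 0. Against MEF 5 of the 6 were lower in muscle (median -3.35) and 2 in converted cells (median -0.80), with none higher. The part of fibroblasts in the level of Slc38a4 was not tested. The Slc38a4 promoter with its E-box, printed above, belongs to a gene that was high in MEF and in converted cells.

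The members nearest to Slc38a4 on chromosome 15 did not show its gap between muscle and the other groups. Slc38a2 (SNAT2), the sodium-coupled importer of alanine and glutamine that amino acid shortage induces, lies 295 kb away and was at 519 and 504 CPM in MEF, 453 and 513 CPM in muscle, and 372 and 433 CPM in converted cells, with no call. Slc38a1 (SNAT1), a further 44.5 kb along, was at 101 and 85.9 CPM in MEF, 67.6 and 78.0 CPM in muscle, and 53.0 and 55.5 CPM in converted cells, where it fell by 0.78 ± 0.24 (edgeR adjusted p = 0.0414). That call did not hold when any 1 of the 6 libraries was left out (edgeR adjusted p = 0.0593 to 0.179). Elsewhere, Slc7a7 and Slc7a8, 304 kb apart on chromosome 14, both rose in muscle and in converted cells. Slc43a1 and Slc43a3, 73.0 kb apart on chromosome 2, both fell in muscle. Other genes between these members were not considered. Slc6a18 and Slc6a19 lie 1.72 kb apart on the same strand of chromosome 13, and neither had more than 1 count in a MEF library.

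**Figure D2:**
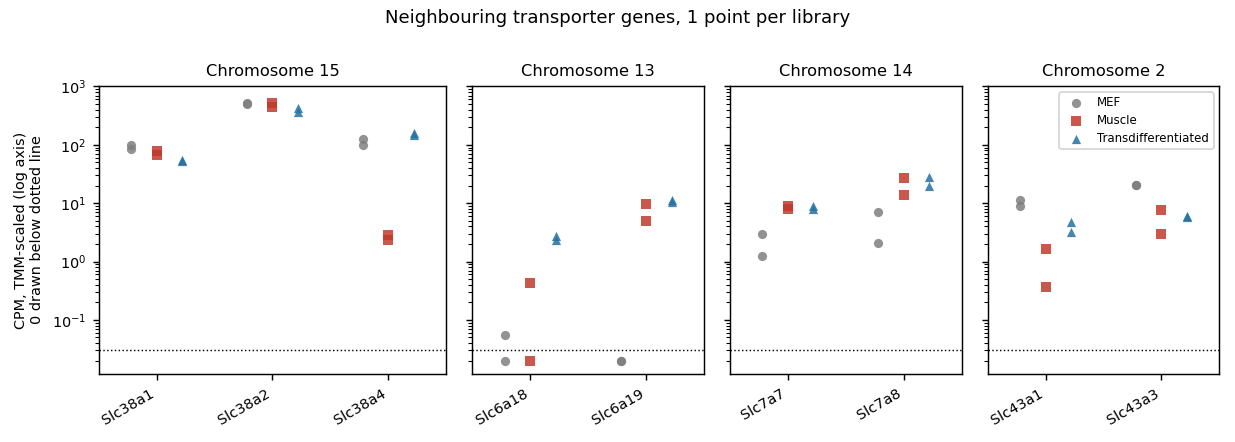
Levels in CPM on a log axis for groups of neighbouring transporter genes, with circles for MEF, squares for muscle and triangles for converted cells, 1 point per library, and 0 counts below the dotted line. On chromosome 15 both muscle libraries of Slc38a4 sit at 2.37 and 2.86 CPM, while the muscle libraries of Slc38a1 and Slc38a2 sit at 67.6 to 513 CPM.

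Of the other Slc38 members, Slc38a9, a lysosomal arginine sensor that activates mTORC1, was at 6.55 and 9.47 CPM in MEF, 20.04 and 24.8 CPM in muscle, and 16.0 and 13.7 CPM in converted cells. It rose in muscle (1.48 ± 0.32, edgeR adjusted p = 0.00636, but 0.057 without Muscle replicate 2). Both converted libraries were above MEF without a call (0.89 ± 0.32, edgeR adjusted p = 0.068). Slc38a7, a lysosomal glutamine exporter, was at 50.4 and 33.8 CPM in MEF, 18.5 and 13.5 CPM in muscle, and 14.6 and 22.3 CPM in converted cells. It fell by 1.39 ± 0.34 in muscle and fell by 1.19 ± 0.34 in converted cells (edgeR adjusted p = 0.0124 and 0.0308). The first call did not hold without MEF replicate 1 or Muscle replicate 2 (edgeR adjusted p = 0.0529 to 0.114), nor the other without MEF replicate 1 or Transdifferentiated replicate 1 (0.14 to 0.148). Slc38a10 was at 215 and 168 CPM in MEF, 155 and 119 CPM in muscle, and 112 and 131 CPM in converted cells, with both groups below MEF and no call. Slc38a6 ran at 8.32 to 10.98 CPM in MEF, 5.80 to 6.39 CPM in muscle and 4.44 to 4.503 CPM in converted cells, where it fell by 1.11 ± 0.34 (edgeR adjusted p = 0.0385, and 0.0535 to 0.176 when any 1 library was left out). Slc38a3 (SNAT3) held 3 and 0 counts in the MEF libraries and 10 and 36 in the converted libraries, a ratio of 15.5 (exact Poisson interval 4.97 to 77.7, without the spread between libraries). Its call (edgeR adjusted p = 0.0400) did not hold without MEF replicate 2, Muscle replicate 1, Muscle replicate 2 or Transdifferentiated replicate 2 (0.053 to 0.202).

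Both tested proton-coupled carriers of the Slc36 family fell in muscle against MEF, beside 18.3% of all genes. Slc36a1 (PAT1; chromosome 11, 55204350 to 55236330), which releases small neutral amino acids from lysosomes, was at 115 and 73.4 CPM in MEF, 29.9 and 23.1 CPM in muscle, and 27.7 and 38.6 CPM in converted cells. No muscle or converted library reached the MEF range. It fell by 1.83 ± 0.32 in muscle and fell by 1.51 ± 0.32 in converted cells (edgeR adjusted p = 0.00257 and 0.00867), and both calls held without any 1 library. Slc36a4 (PAT4) was at 26.2 and 32.1 CPM in MEF, 14.6 and 16.3 CPM in muscle, and 25.5 and 21.1 CPM in converted cells. It fell by 0.92 ± 0.27 in muscle (edgeR adjusted p = 0.0287), though not without MEF replicate 2, Muscle replicate 1 or Muscle replicate 2 (0.126 to 0.173).

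Glutamate carriers of the Slc1 family were higher in converted cells than in muscle in 2 of 3 tested cases, beside 7.58% of all genes. Slc1a2 passed the filter on low counts through its converted libraries, so it had to differ and this count is only a description. Slc1a3 (GLAST, EAAT1; chromosome 15, 8634124 to 8710764), a high-affinity glutamate importer best known from astrocytes, was at 21.5 and 22.4 CPM in MEF, 0.384 and 0.183 CPM in muscle, and 15.1 and 11.6 CPM in converted cells. Muscle fell by 6.18 ± 0.45 against MEF (edgeR adjusted p = 1.6e-05), and converted cells were 5.47 ± 0.45 above muscle (2.5e-04). Converted libraries were also below MEF, without a call (-0.72 ± 0.32, edgeR adjusted p = 0.138). Slc1a2 (GLT-1, EAAT2; chromosome 2, 102658659 to 102790784), the main glutamate importer of astrocytes, ran at 0.330 to 0.486 CPM in MEF and 0.426 to 1.02 CPM in muscle, against 9.20 to 10.5 CPM in converted cells. It rose by 4.56 ± 0.54 against MEF and was 3.71 ± 0.50 above muscle (edgeR adjusted p = 4.0e-04 and 0.0023). The calls of both genes held without any 1 library. Schwann and glial markers summed to 17.4 to 22.7 CPM in MEF, 1.46 to 2.13 CPM in muscle and 27.8 to 31.3 CPM in converted cells, with none of the 6 at 0. Of 5 tested, 4 were higher in converted cells than in muscle, and against MEF 1 was higher and 1 lower. Macrophage markers were higher in converted cells than in muscle in 10 of 10 cases. Fibroblast markers were lower in muscle than in MEF in 5 of 6 cases (median log2 fold change -3.35). In converted cells 4 of the 6 were higher than in muscle (median 2.07), and 2 were lower than in MEF (median -0.80). The part of these cell types in the 2 results was not tested.

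Slc1a6 (EAAT4), a glutamate carrier of cerebellar neurons, lay at 9.69 to 9.81 CPM in MEF, 0.0609 to 0.810 CPM in muscle and 2.02 to 2.91 CPM in converted cells. It fell by 4.35 ± 0.72 in muscle and fell by 1.98 ± 0.61 in converted cells (edgeR adjusted p = 0.0017 and 0.0417), the converted call not without Transdifferentiated replicate 1 or Transdifferentiated replicate 2 (0.0506 to 0.114). Slc1a1 (EAAT3), the one untested member to reach 10 counts in a library, held 1 to 19 counts per library, and an overlapping gene on the opposite strand shares 31.9% of its exon length.

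The neutral carriers of the family differed from each other. Slc1a5 (ASCT2; chromosome 7, 16781340 to 16798274), a glutamine carrier of dividing cells, was at 58.2 and 42.6 CPM in MEF, 27.0 and 29.8 CPM in muscle, and 7.20 and 10.6 CPM in converted cells. The groups did not overlap, and converted cells were the lowest. Converted cells fell by 2.50 ± 0.32 against MEF and were below muscle (-1.67 ± 0.31), with edgeR adjusted p = 5.9e-04 and 0.0102, while muscle against MEF was not called (-0.83 ± 0.30, 0.0596). The call against muscle did not hold without Muscle replicate 2 (edgeR adjusted p = 0.0729). Proliferation markers summed to 12.3 to 13.9 CPM in muscle, 50.9 to 89.2 CPM in converted cells and 185 to 255 CPM in MEF, and their part in the level of Slc1a5 was not tested. Slc1a4 (ASCT1; chromosome 11, 20302180 to 20332713), a carrier of serine, alanine and cysteine, was at 69.0 and 62.9 CPM in MEF, 28.8 and 21.9 CPM in muscle, and 52.5 and 43.5 CPM in converted cells. It fell by 1.38 ± 0.27 in muscle (edgeR adjusted p = 0.0039, but 0.0585 without Muscle replicate 2). Converted cells lay between the other groups and were called against neither (edgeR adjusted p = 0.238 for MEF and 0.0645 for muscle).

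**Figure D3:**
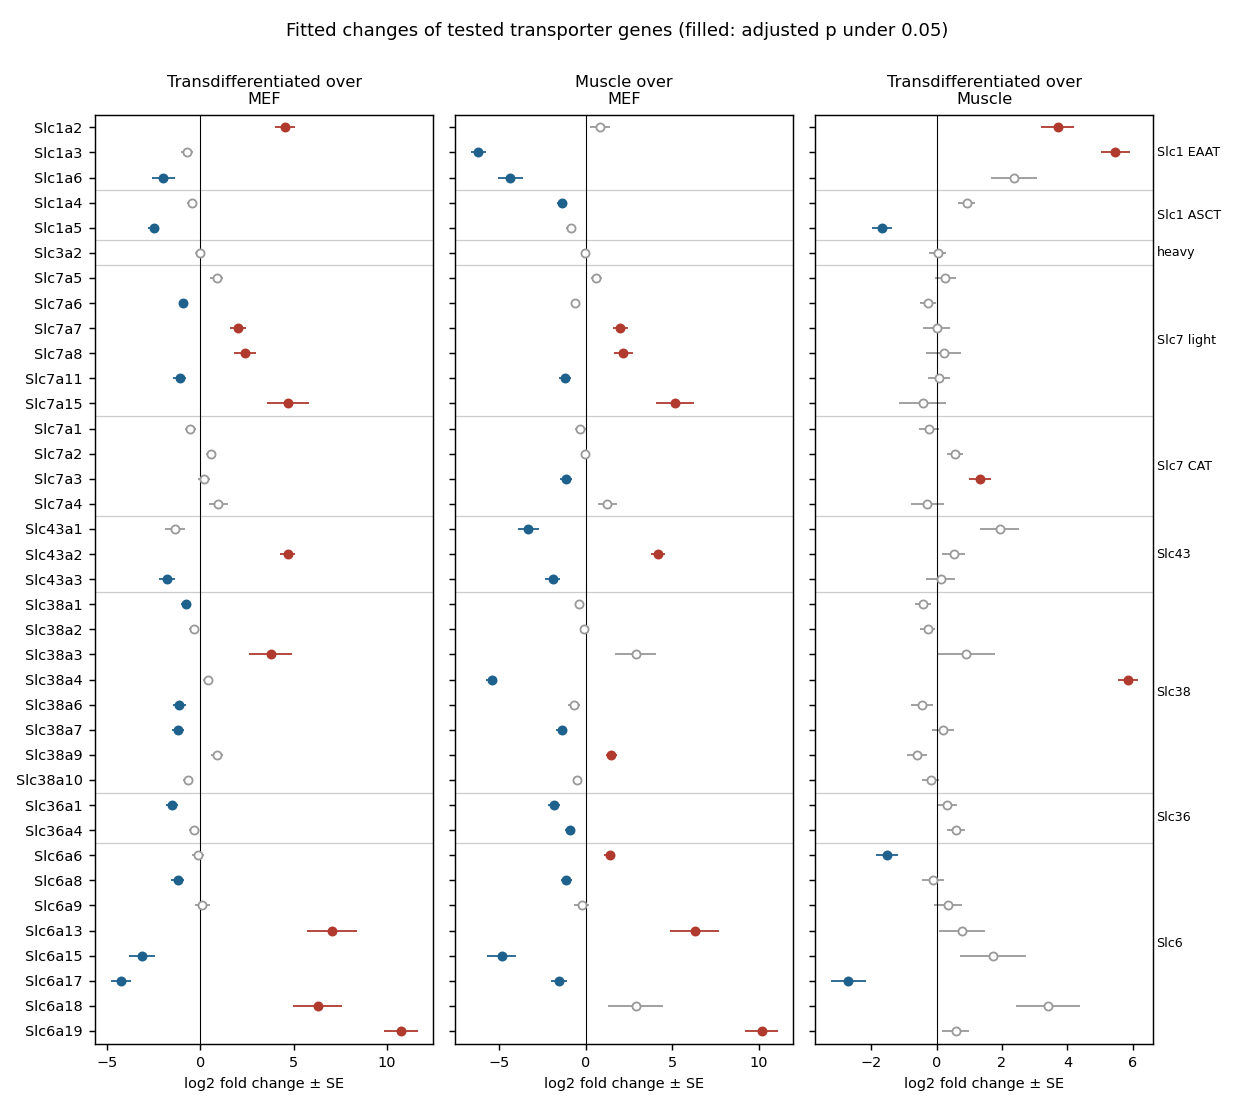
Log2 fold change with its standard error for the 37 tested transporters in each comparison, filled where the edgeR adjusted p was under 0.05 (red higher, blue lower) and open otherwise, with horizontal scales that differ between panels. In the direct comparison Slc38a4, Slc1a3, Slc1a2 and Slc7a3 are called on the higher side and Slc6a17, Slc1a5 and Slc6a6 on the lower side, and the other 30 are not called.

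Among the Slc6 carriers, the taurine carrier Slc6a6 (TauT; chromosome 6, 91684053 to 91759066) was highest in muscle, at 856 and 885 CPM, against 403 and 264 CPM in MEF and 223 and 391 CPM in converted cells. Both muscle libraries lay above the others, and MEF and converted cells overlapped. Muscle was above MEF by 1.38 ± 0.33, and the log2 change of converted cells over muscle was -1.504 ± 0.33 (edgeR adjusted p = 0.0107 and 0.0216). The first call did not hold without Muscle replicate 2 (edgeR adjusted p = 0.0533), nor the other without Muscle replicate 1, Muscle replicate 2 or Transdifferentiated replicate 1 (0.0882 to 0.11). Per kilobase of exon Slc6a6 was first of the 61 members in muscle, at 103 CPM per kilobase, and stood at 39.4 in MEF and 36.3 in converted cells. Cdo1, an enzyme of taurine synthesis, was lowest in muscle, at 41.0 to 44.6 CPM in MEF, 1.28 CPM in both muscle libraries and 19.96 to 20.9 CPM in converted cells, 3.99 ± 0.31 above muscle (edgeR adjusted p = 1.8e-04).

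Slc6a8 (chromosome X, 73673150 to 73682502), the creatine carrier, was at 309.7 and 178 CPM in MEF, 124 and 103 CPM in muscle, and 81.0 and 129.95 CPM in converted cells. It fell by 1.11 ± 0.34 in muscle and fell by 1.21 ± 0.34 in converted cells (edgeR adjusted p = 0.0337 and 0.0303). The muscle call did not hold without MEF replicate 1, Muscle replicate 1 or Muscle replicate 2 (edgeR adjusted p = 0.0984 to 0.196), nor the converted call without MEF replicate 1 or Transdifferentiated replicate 1 (0.135 to 0.149). Creatine synthesis and creatine kinase genes rose in the same libraries, 4 of 5 tested in each comparison with MEF (medians 6.54 in converted cells and 5.53 in muscle). Of all genes 15.9% were called higher in converted cells and 17.3% in muscle. Gatm, which makes the creatine precursor guanidinoacetate, rose from 3.58 to 5.29 CPM in MEF to 349 to 482 CPM in converted cells (6.54 ± 0.38, edgeR adjusted p = 6.6e-06).

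Slc6 carriers known from kidney, gut and brain moved in both directions. Slc6a19 (B0AT1; chromosome 13, 73679745 to 73704865), the sodium-dependent neutral amino acid importer of gut and kidney, had 0 counts in both MEF libraries, 9.55 and 4.99 CPM in muscle, and 11.4 and 10.6 CPM in converted cells. Its group mean was 46.8 times the level of 3 counts per MEF library in muscle, and 70.8 times in converted cells. These ratios leave out the spread between libraries, and a single library can lie below them. Both rises were called (edgeR adjusted p = 1.3e-04 and 1.2e-04), and both calls held without any 1 library. Epithelial markers summed to 10.4 to 10.6 CPM in MEF, 1.41 to 3.53 CPM in muscle and 2.25 to 4.26 CPM in converted cells. Of 3 tested, 2 were lower than MEF in each group, and 1 was higher in converted cells than in muscle. Their part in the level of Slc6a19 was not tested. Its neighbour Slc6a18, a related carrier of kidney, held 1 count in MEF, 10 and 0 counts in the muscle libraries, and 2.37 to 2.70 CPM in converted cells, a ratio to MEF of 97.8 (exact Poisson interval 17.1 to 3901; edgeR adjusted p = 0.0079). Slc6a18 passed the filter on low counts only through its converted libraries, so this rise is a description. Its direct difference from muscle was not called (edgeR adjusted p = 0.0631). Slc6a13 (GAT2), a GABA and taurine carrier, had 0 counts in MEF, 0.426 to 0.554 CPM in muscle and 0.787 to 0.920 CPM in converted cells. Its group means were 3.15 and 5.49 times the level of 3 counts per MEF library (edgeR adjusted p = 0.0102 and 0.00635). Its muscle call did not hold without Muscle replicate 1 (0.0529).

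Slc6a17 (NTT4), a vesicular carrier of neutral amino acids in neurons, lay at 10.01 to 14.5 CPM in MEF, 3.33 to 5.11 CPM in muscle and 0.337 to 0.920 CPM in converted cells. Against MEF it fell by 4.25 ± 0.54 in converted cells and fell by 1.54 ± 0.46 in muscle, and the log2 change of converted cells over muscle was -2.70 ± 0.53 (edgeR adjusted p = 6.2e-04, 0.0285 and 0.0137). The direct call did not hold without Muscle replicate 2 (edgeR adjusted p = 0.0807), nor the muscle call without MEF replicate 1, Muscle replicate 1 or Muscle replicate 2 (0.0681 to 0.172). Slc6a15 (B0AT2), a carrier of branched-chain amino acids in brain, ran at 1.32 to 1.89 CPM in MEF and 0.169 to 0.194 CPM in converted cells, where it fell by 3.10 ± 0.71 (edgeR adjusted p = 0.0113). It held 2 counts in muscle, where it also fell (edgeR adjusted p = 0.0022), with MEF over muscle at a ratio of 32.4 (exact Poisson interval 8.61 to 274). The converted call did not hold without MEF replicate 2, Transdifferentiated replicate 1 or Transdifferentiated replicate 2 (edgeR adjusted p = 0.0507 to 0.0937). Slc6a9 (GlyT1), the glycine carrier, ran at 14.3 to 24.2 CPM in MEF, 14.1 to 18.9 CPM in muscle and 13.2 to 28.7 CPM in converted cells and was called nowhere, and Ccdc24 on the opposite strand shares 27.8% of its exon length. Neuron markers, of which 2 of 6 were tested, summed to 29.3 to 39.3 CPM in MEF, 9.51 to 12.4 CPM in muscle and 25.5 to 44.1 CPM in converted cells, with Rbfox3 at 0 in all, and their part in these falls was not tested.

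On the scale of CPM per kilobase of exon, Slc3a2, Slc38a2, Slc7a5 and Slc6a6 together held 47.5% to 49.7% of the summed level of all 61 members in MEF, 70.5% to 73.0% in muscle and 57.4% to 62.6% in converted cells. Slc38a4 stood at 26.6 CPM per kilobase in MEF, 0.614 in muscle and 35.5 in converted cells. The sum itself was 387 to 504 CPM per kilobase in MEF, 408 to 445 in muscle and 359 to 469 in converted cells, so the groups overlapped. Between 39 and 49 of the 61 members had at least 1 count in a library. Of the 24 that were not tested 5 had 0 counts in every library (Slc6a3, Slc6a5, Slc6a14, Slc7a12 and Slc38a11).

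Counts in the lists of genes that sense, make or use amino acids stand beside 15.9% of all genes higher and 11.3% lower in converted cells against MEF (median log2 fold change 0.07), and 17.3% higher and 18.3% lower in muscle against MEF (median 0.00). In the list of mTORC1 and lysosomal sensing genes 5 of 32 rose and 2 fell in converted cells (median 0.07), and 7 rose and 4 fell in muscle (median 0.21); in converted cells the share that rose and the median were close to those of all genes. Deptor, an inhibitor of mTOR, rose from 3.36 to 5.39 CPM in MEF to 104 to 108 CPM in converted cells and 328 to 359 CPM in muscle (4.59 ± 0.32 and 6.29 ± 0.34, edgeR adjusted p = 1.6e-05 and 3.7e-06). Rragd, a Rag GTPase that recruits mTORC1 to lysosomes, rose by 3.97 ± 0.45 in converted cells (edgeR adjusted p = 3.3e-04). Of 25 genes of the ATF4 amino acid response 4 rose and 7 fell in converted cells (median -0.67), and 3 rose and 6 fell in muscle (median -0.50). Stc2 and Fgf21, both secreted proteins, rose in muscle (3.04 ± 0.26 and 6.65 ± 0.42, edgeR adjusted p = 4.0e-05 and 7.4e-06) and in converted cells (2.16 ± 0.25 and 2.57 ± 0.41, 3.6e-04 and 0.00192). Between converted cells and muscle the log2 change of Fgf21 was -4.08 ± 0.35 (edgeR adjusted p = 2.8e-04). In the list of cysteine, taurine and glutathione enzymes 3 of 16 rose and 3 fell in converted cells (median -0.47), among them Cth, which makes cysteine and fell by 2.23 ± 0.34 (edgeR adjusted p = 0.0014), and 4 rose and 6 fell in muscle (median -0.09). Cytosolic aminoacyl-tRNA synthetases, which charge tRNAs, were neither in 18 of 20 cases in each comparison with MEF (medians -0.11 in converted cells and 0.04 in muscle).

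Enzymes of glutamine and glutamate metabolism rose in 2 and fell in 3 of 15 cases in converted cells (median 0.24), and rose in 4 and fell in 5 in muscle (median 0.04). Glul, which makes glutamine from glutamate, rose from 32.1 to 40.9 CPM in MEF to 139 to 154 CPM in converted cells (2.004 ± 0.26, edgeR adjusted p = 5.7e-04). Of 24 branched-chain catabolism genes Bcat1, the cytosolic transaminase, was the 1 called in converted cells, where it fell by 1.65 ± 0.23 (edgeR adjusted p = 0.00100), and 5 rose and 1 fell in muscle (list medians 0.31 in converted cells and 0.39 in muscle). Among 13 serine, glycine and one-carbon genes 1 rose and 2 fell in converted cells (median -0.13). Gldc, of the glycine cleavage system, rose by 3.76 ± 0.38 and Phgdh, which starts serine synthesis, fell by 1.5005 ± 0.28 (edgeR adjusted p = 1.4e-04 and 0.00463). In the arginine, proline and polyamine list 3 of 17 rose and 1 fell in converted cells (median 0.21), a share that rose close to that of all genes, and 4 rose and 2 fell in muscle (median 0.48). The spermine synthase gene Sms rose in both (2.34 ± 0.32 in converted cells and 2.98 ± 0.32 in muscle, edgeR adjusted p = 8.6e-04 and 1.7e-04).

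Amino acid carriers outside these families moved both ways, with 7 of 21 up and 6 down in converted cells (median 0.07) and 2 up and 7 down in muscle (median -0.44). Slc25a18, a mitochondrial glutamate carrier, lay at 0.110 to 0.194 CPM in MEF and 0 to 0.0426 CPM in muscle, against 3.04 to 5.52 CPM in converted cells (4.74 ± 0.71 against MEF, edgeR adjusted p = 0.00145). Slc25a18 passed the filter on low counts only through the converted libraries, so its rise is a description. Sfxn1, the mitochondrial serine carrier, fell by 1.87 ± 0.30 in converted cells (edgeR adjusted p = 0.00218). Slc17a7, a vesicular glutamate carrier, and Slc25a12, a mitochondrial aspartate-glutamate carrier, rose in muscle (5.31 ± 0.60 and 1.79 ± 0.27, edgeR adjusted p = 2.0e-04 and 9.2e-04).

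**Figure D4:**
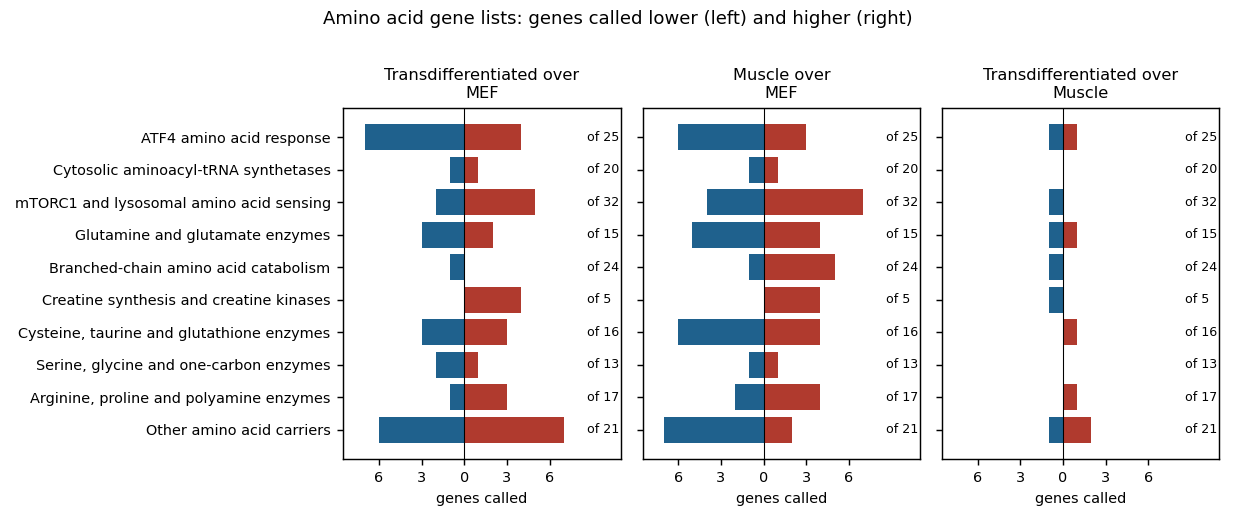
Number of genes called higher and lower in each of 10 lists of amino acid genes, for each comparison, with higher in red to the right, lower in blue to the left, and the number tested at the right edge. Creatine genes have 4 of 5 higher in both comparisons with MEF, and most other lists have calls in both directions.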

How the data were processed

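The count table, as deposited by the authors, holds unnormalized whole-number counts for 55286 symbols in 6 libraries. The authors' own comparison came as log2 fold changes, p-values and a mean normalized signal per gene (not used), per the file headers, which name no contrast. Per the labels' protocols, mRNA libraries were read as single ends of 75 bases. The submitters' processing notes name mm10 and these tools: DESeq2 1.26.0, featureCounts 1.6.2, HISAT2 2.1.0, Trim Galore 0.6.0. Annotation and strandedness are not given there.

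Counts were fitted over all 6 libraries in R 4.3.3 with edgeR 4.0.16 (filterByExpr by group, 17400 genes, TMM, robust quasi-likelihood, 3 residual degrees of freedom, biological coefficient of variation 27.3%) with Benjamini-Hochberg adjustment, after a test on simulated data. Each edgeR SE was derived from the test, as the absolute log2 fold change divided by the square root of the quasi-likelihood F. With 2 libraries a group the smallest exact permutation p is 0.333, so none was used. Alternatives were DESeq2 1.42.0, its size factors, upper-quartile scaling, no filter, a replicate block, fits of only the groups compared, and each library left out. Coordinates and exon lengths are from GENCODE M21 (mm10), matched by symbol for 61 members. Ratios over 1 to 3 counts have exact Poisson intervals at 95 percent, over pooled libraries and for counting error only.

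Members, roles and lists were chosen with earlier results of these data known. All tested members could be named, with each library's value for called members at 20 CPM or more in a group and the 5 highest not called, and a range for others. From each of 10 pathway lists, the 2 called genes of smallest adjusted p in each comparison with MEF could be named.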

Additional observations from a re-analysis of the deposited data

How the results depend on the processing

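Of 50 transporter calls 24 held in every one of 12 alternatives. The 12 transporters lower in converted cells than in MEF became 5 with a replicate block and 7 with only these groups fitted. The 4 higher in converted cells than in muscle became 8 with no filter or with DESeq2. Over all genes, 428 lower in converted cells than in muscle became 670 with no filter and 265 with the replicate block. Replicate differences correlated at 0.31 between MEF and muscle, -0.53 between MEF and converted cells and -0.29 between muscle and converted cells. With a single difference per group, these values cannot show whether replicate numbers pair the libraries. Leaving out 1 library gave 4 to 9 lower transporters in converted cells and 6 to 15 in muscle against MEF, and 3 to 7 higher and 0 to 3 lower in the direct comparison. The 7 came without MEF replicate 1 or 2, and the 0 without Muscle replicate 2 (edgeR; 3 at an unadjusted p under 0.05; DESeq2 was not run there). Over all genes it gave 1280 to 1926 lower in converted cells against MEF, 1980 to 3223 higher and 1778 to 3445 lower in muscle against MEF, and 589 to 1616 higher and 140 to 605 lower in the direct comparison. With an arm of 1 library, that library is assumed to vary like the other groups. The log2 fold change of Slc3a2 in converted cells against MEF was -0.016 with DESeq2 size factors, upper-quartile scaling or DESeq2, and that of Slc7a7 in the direct comparison was -0.021 with DESeq2 size factors or DESeq2. Uncalled log2 fold changes that changed sign when 1 library was left out had these ranges. For converted cells against MEF these were Slc3a2 -0.22 to 0.28, Slc6a6 -0.61 to 0.23, Slc6a9 -0.58 to 0.58 and Slc7a3 -0.070 to 0.40. For muscle against MEF these were Slc3a2 -0.25 to 0.25, Slc6a9 -0.56 to 0.21, Slc6a18 -2.29 to 5.25, Slc7a2 -0.13 to 0.11 and Slc38a2 -0.17 to 0.0026. For converted cells against muscle these were Slc3a2 -0.13 to 0.18, Slc6a8 -0.50 to 0.20, Slc6a9 -0.34 to 0.80, Slc7a1 -0.71 to 0.14, Slc7a4 -0.99 to 0.19, Slc7a5 -0.12 to 0.57, Slc7a7 -0.11 to 0.11, Slc7a8 -0.19 to 0.81, Slc7a11 -0.27 to 0.34, Slc7a15 -0.90 to 0.22, Slc38a3 -0.15 to 1.65, Slc38a7 -0.15 to 0.48, Slc38a10 -0.36 to 0.025 and Slc43a3 -0.40 to 0.98. The cause of these shifts was not tested. Depth limits genes under the 3-count floor.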
